A study of Mus musculus with 4 samples.

Results

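The genes for voltage-gated sodium and calcium channels, for HCN channels and for TRP channels were examined in cochlear ducts of *Sox2-Tbx2LOF* and control mouse embryos. The groups were picked with earlier results of these data known, and their members were taken by symbol. They were the *Scn*, *Cacna1*, *Cacna2d*, *Cacnb*, *Cacng* and *Hcn* genes, the *Trpa*, *Trpc*, *Trpm* and *Trpv* genes, and the polycystin genes *Pkd2*, *Pkd2l1* and *Pkd2l2*. The array carried 67 such genes with 101 probes, out of 29924 genes with 39429 probes. RNA was measured on 4 Agilent 2-color arrays, each of which compared a pool of mutant ducts with a pool of control ducts. All embryos were of the NMRI strain and stage E14.5 (embryonic day), and their dams had been given 4 mg of tamoxifen by mouth at E12.5. Mutant embryos were *Sox2(creERT2);Tbx2(fl/fl)*, and the labels give the controls as *Tbx2(fl/n.d.)*, with the second allele not determined. Female pools were hybridized on arrays 1 and 2, and male pools on arrays 3 and 4. The mutant carried the dye Cy5 on arrays 1 and 3, and Cy3 on the others. The mutant therefore differed from the control by the creERT2 insertion at *Sox2* as well as by the deletion of *Tbx2*, and these cannot be told apart. The Cre is made in cells that express *Sox2*, so only these cells and their descendants could lose *Tbx2*. Which cells of the dissected duct lost it was not measured here. Each pool was made from the ducts of many embryos of 1 sex, and the pools were independent of each other.

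Voltage-gated sodium channels (Nav) carry the rising phase of the action potential and consist of a pore-forming alpha subunit and auxiliary beta subunits. Voltage-gated calcium channels (Cav) have an alpha1 pore with alpha2delta, beta and gamma subunits and couple depolarization to calcium entry, which in hair cells drives transmitter release. HCN channels open on hyperpolarization and pace firing, among others in spiral ganglion neurons. TRP channels are a diverse group of cation channels that respond to chemical, thermal, osmotic or lipid signals, and the polycystins of the PKD2 group belong to the same superfamily. At E14.5 most hair cells of the cochlea have not yet differentiated, while nerve fibers and their glia already reach the duct.

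Of the 67 channel genes, 50 were tested, against 70.3% of all genes on the array. A probe entered the test when 4 or more of its 8 measurements, 1 per pool, stood well above background. The 50 genes had 71 such probes, and each gene was read by its brightest. That probe was well above background in all 8 pools for each of the 50. Levels are normalized log2 signals and differences are log2 ratios of mutant over control, with SD over the 4 arrays. Adjusted p values are Benjamini-Hochberg values of limma over the 21042 genes tested, and the number of arrays limits their precision. A gene passed the test at an adjusted p below 0.05, and it was called when its fold change was also 1.5 or more.

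Most channel genes did not pass the test, and those that did differed in both directions. Of the 50 tested genes 1, *Pkd2l1*, was called lower and 0 were called higher, while 0.309% of all tested genes were called lower and 0.133% higher, or 0.442% in either direction. By the adjusted p alone, 4 channel genes were lower in the mutant, among them *Pkd2l1*, *Scn4b* and *Scn3a*, and 3 were higher, namely *Trpc4*, *Trpm1* and *Trpv6*. The 4 are 8% of the channel genes against 2.92% of all tested genes, and the 3 are 6% against 2.26%, which makes 14% against 5.18% in either direction. Because the groups were picked with earlier results of these data known, these shares only describe them. At an unadjusted p below 0.05 there were 13 of 50, or 26%, against 20.2% of all tested genes. The median log2 ratio of the 50 genes was −0.0013, beside 0.0024 over all tested genes, and the median of its size was 0.056 beside 0.043. For 39 of the 50 genes the mean ratio lay within 0.1 of 0. The ratio had the same sign on all 4 arrays for 14 of the 50 genes, or 28%, against 18.2% of all tested genes. Of the 14, 9 were below 0 on each array (9.31% of all tested genes), among them *Cacng4*, *Trpa1* and *Cacna1a*, and 5 were above 0 (8.85% of all). The groups of pools did not overlap for *Pkd2l1* and *Scn4b*, which were lower in every mutant pool than in any control pool (2.54% of all tested genes), nor for *Trpc4* and *Trpv6*, which were higher (1.74% of all). These 4 genes are 8% of the 50, against 4.28% of all tested genes.

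**Figure D1:**
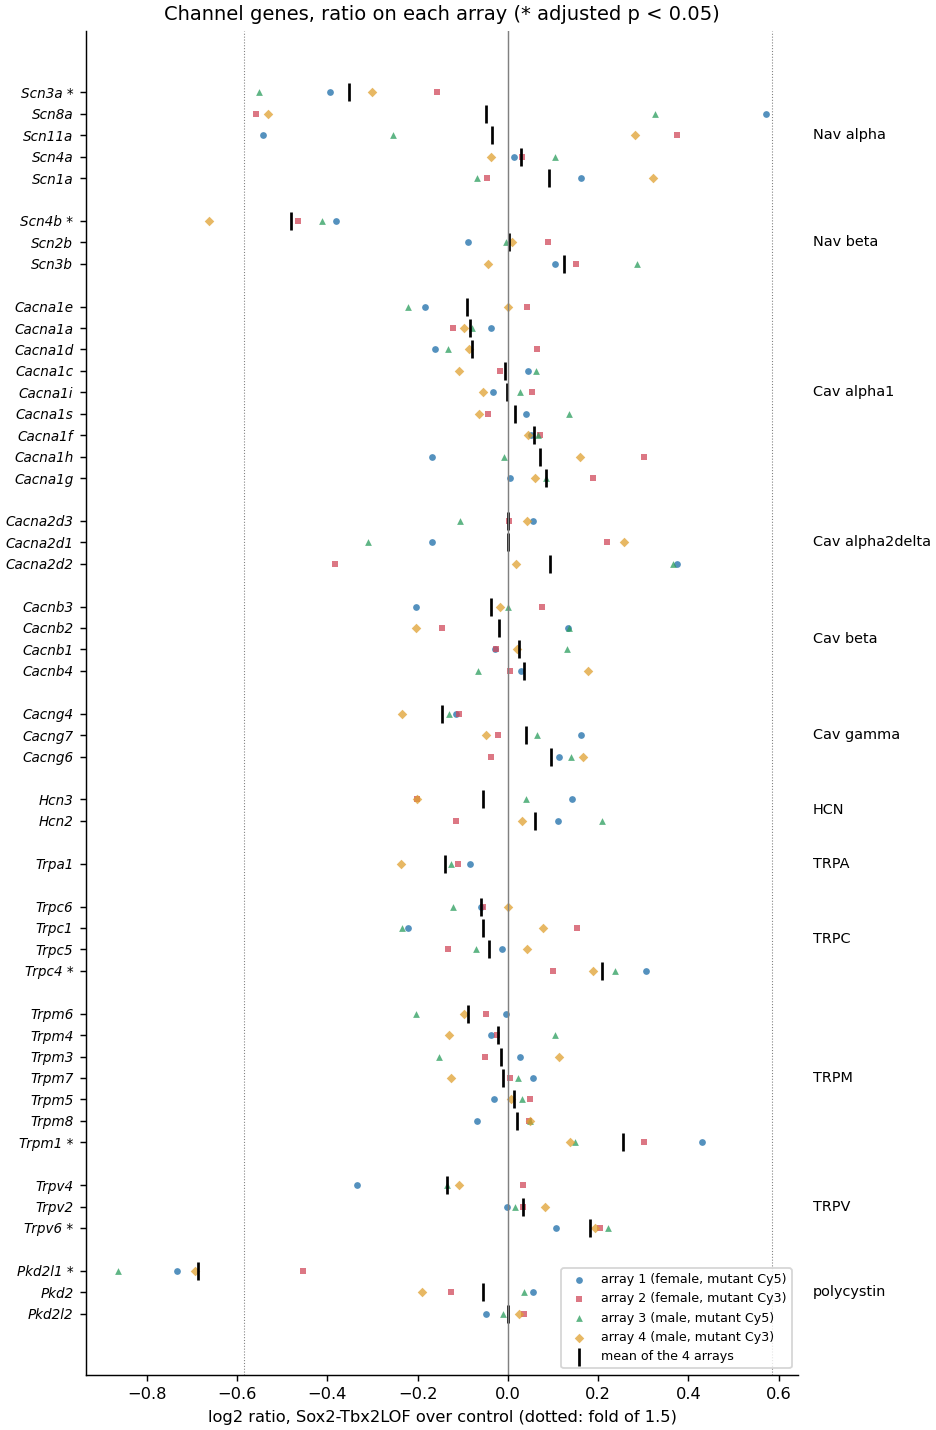
Log2 ratio of mutant over control (horizontal axis) for 47 of the tested channel genes (rows, grouped by family). Symbols stand for the 4 arrays, black bars for their mean, dotted lines for a fold change of 1.5, and stars for an adjusted p below 0.05; the mean of *Pkd2l1*, at −0.69, is the only one beyond a dotted line.

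The genes passing the test were also searched for motifs in the sequence before their start, because the deleted gene encodes a T-box factor that binds DNA and *Trpm1* is known from melanocytes. A RefSeq table (build GRCm38.p6) held entries for 4 of the genes (*Scn4b*, *Trpc4*, *Trpm1* and *Trpv6*), with 5 starts in all, while *Pkd2l1* and *Scn3a* were not searched. A pair of short motifs was searched on both strands of the 250 bases before each start, namely GGTGTGA, one arm of the palindromic site that T-box factors such as TBX2 bind, and CATGTG, the core of the M-box bound by the melanocyte factor MITF. The T-box letters were found in 0 of the 5 windows, where 3.33% of all 32841 promoters hold them, and the M-box letters in 1 of the 5, where 12.3% of all promoters do. The match lay in a *Trpm1* window, 141 bases before the start, and is in capitals. The windows of *Scn4b* and of the 2 TRP genes with several probes are shown with it, on the strand of the gene. They lie at chr9:45138374-45138623 (plus), chr3:54155807-54156056 (plus) and chr7:64153585-64153834 (plus).
Scn4b: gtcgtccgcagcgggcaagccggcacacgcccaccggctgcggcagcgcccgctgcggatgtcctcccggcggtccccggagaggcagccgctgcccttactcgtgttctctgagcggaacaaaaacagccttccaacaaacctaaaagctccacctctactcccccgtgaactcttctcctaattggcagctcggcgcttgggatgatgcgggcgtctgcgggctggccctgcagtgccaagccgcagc
Trpc4: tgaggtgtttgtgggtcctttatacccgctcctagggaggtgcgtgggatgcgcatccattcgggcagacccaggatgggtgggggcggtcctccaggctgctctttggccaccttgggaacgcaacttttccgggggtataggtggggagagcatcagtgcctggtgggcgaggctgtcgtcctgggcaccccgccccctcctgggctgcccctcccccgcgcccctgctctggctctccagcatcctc
Trpm1: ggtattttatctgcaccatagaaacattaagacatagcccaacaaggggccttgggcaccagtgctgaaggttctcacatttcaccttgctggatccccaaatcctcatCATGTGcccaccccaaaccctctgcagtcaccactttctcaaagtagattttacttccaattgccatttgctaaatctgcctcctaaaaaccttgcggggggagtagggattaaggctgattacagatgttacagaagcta
A match is a string of letters and not a measured site, and its absence says only that these letters are not in this window. Their G and C content was 66%, 66.4% and 46% over these 250 bases, beside a median of 52.4% over all promoters.

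The largest change among the channel genes was in a polycystin. *Pkd2l1* encodes a cation channel of the PKD2 group that is known from neurons contacting the cerebrospinal fluid and from acid-sensing taste cells. Its probe lies on chromosome 19 from 44222606 to 44222665 of the mouse build mm9. The log2 signal in the control pools was 7.51, 7.45, 7.70 and 7.69 on arrays 1 to 4, and in the mutant pools 6.78, 6.996, 6.84 and 6.997. Each mutant pool was thus below each control pool. The dimmest signals well above background in the mutant pools were 6.52 to 6.60 on the 4 arrays, so *Pkd2l1* read near that limit there. The log2 ratios were −0.73, −0.45, −0.86 and −0.69, with a mean of −0.69 ± 0.17 (SD over 4 arrays, SE 0.048, adjusted p = 0.000258), a fold change of 1.61. The size of this change depended on how background was removed. With Agilent's own processed signals the ratio was −1.46, with an offset of 10 in place of 50 it was −0.95, and *Pkd2l1* was called in each of the 16 other settings. The ratio averaged −0.59 on the female and −0.78 on the male arrays, and the difference between the sexes did not pass the test (limma adjusted p = 1.00). The other polycystins did not pass the test. *Pkd2*, whose product is a ciliary and endoplasmic reticulum channel mutated in polycystic kidney disease, had a ratio of −0.056 ± 0.12 (SD, n = 4), and *Pkd2l2* had one of 0.00081 ± 0.038 (SD, n = 4).

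Among the sodium channels, 1 beta and 1 alpha subunit were lower. *Scn4b* encodes the beta4 subunit, which is linked to the alpha subunit by a disulfide bond and is known for its part in resurgent sodium current. Its probe lies on chromosome 9 from 44962045 to 44962104 (mm9). The log2 signal was 8.75, 8.73, 8.76 and 8.84 in the control pools of arrays 1 to 4 and 8.37, 8.26, 8.35 and 8.17 in the mutant pools. The control pools lay close together, and all 4 mutant pools were below them. The mean log2 ratio was −0.48 ± 0.13 (SD over 4 arrays, SE 0.042, adjusted p = 0.000708), a fold change of 1.40. It passed the test in every setting tried and reached a fold change of 1.5 in 2 of them. These were Agilent's processed signals (−0.60) and the authors' value table (−0.61). The neighboring gene *Scn2b*, which encodes the beta2 subunit and whose probe lies 24.1 kb away, had a ratio of 0.0016 ± 0.073 (SD, n = 4). *Scn3b*, for the beta3 subunit, had a ratio of 0.12 ± 0.14 (SD, n = 4) and did not pass the test.

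*Scn3a* encodes Nav1.3, an alpha subunit that is best known from embryonic neurons. Its brightest probe lies on chromosome 2 from 65296320 to 65296379 (mm9). The log2 signal was 9.64, 9.11, 9.63 and 9.43 in the control pools and 9.24, 8.95, 9.07 and 9.13 in the mutant pools. Mutant was lower than control on each array, but the groups overlapped, since the control pool of array 2 was below 2 of the mutant pools. The mean log2 ratio was −0.35 ± 0.17 (SD over 4 arrays, SE 0.043, adjusted p = 0.0039), a fold change of 1.28. The other probes of the gene gave smaller ratios. A probe 1.62 kb away had −0.23 ± 0.17 (SD, n = 4), with an adjusted p over all probes of 0.098, where 3.99% of all tested probes passed. A probe 50 kb away had −0.04 ± 0.12 (SD, n = 4), and 2 further probes were too dim to be tested. Without the dye term *Scn3a* no longer passed the test.

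The other alpha subunits did not pass the test. *Scn8a* encodes Nav1.6, the main channel at mature nodes of Ranvier, and its brightest probe followed the dye. Its log2 ratios were 0.57 and 0.33 on the arrays with the mutant in Cy5 and −0.56 and −0.53 on those with the mutant in Cy3. They averaged −0.048 ± 0.58 (SD, n = 4), and a second tested probe, 109 kb away, had 0.0071 ± 0.016 (SD, n = 4). *Scn11a*, which encodes Nav1.9 of sensory neurons, showed the opposite dye direction, with −0.54 and −0.26 in Cy5 and 0.37 and 0.28 in Cy3. *Scn1a* and *Scn4a*, for the Nav1.1 channel and the main channel of skeletal muscle, had ratios of 0.092 and 0.028. *Scn7a*, *Scn9a* and *Scn10a* were too dim to be tested.

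**Figure D2:**
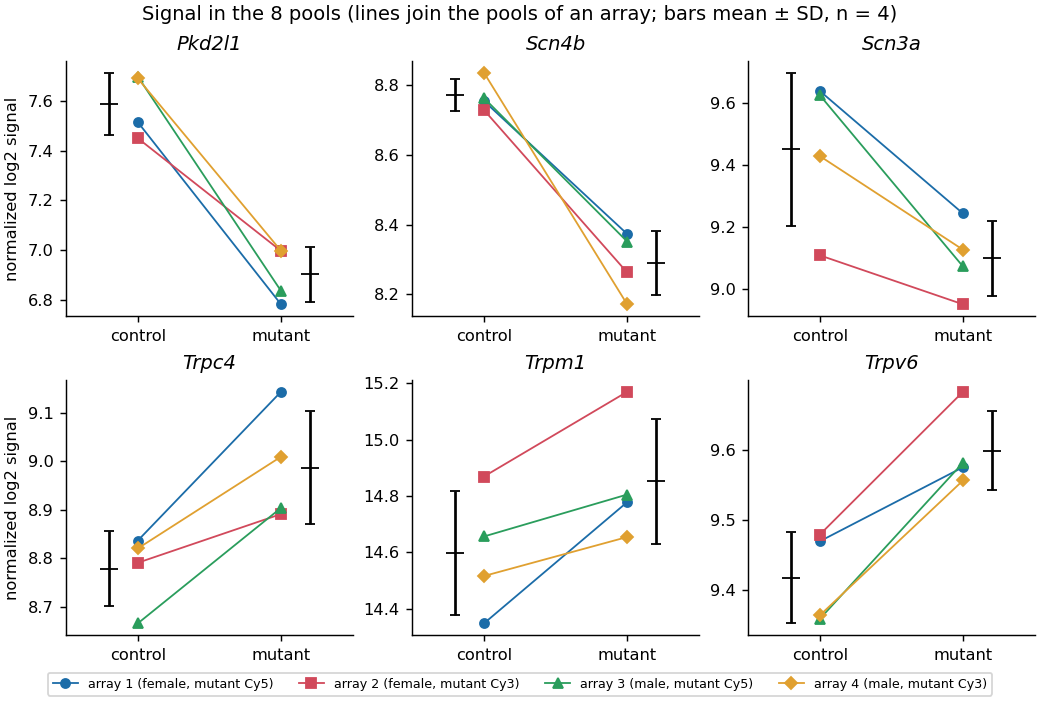
Normalized log2 signal in the 4 control and 4 mutant pools for 6 genes that passed the test; vertical axes differ between panels. Lines join the 2 pools of an array and black bars give mean ± SD (n = 4); the pools of *Pkd2l1* and *Scn4b* are apart, with mutant lower, and those of *Trpc4* and *Trpv6* are apart, with mutant higher.

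Of the calcium channel genes 0 of 19 tested passed the test, whatever the subunit. The 9 tested alpha1 genes had mean log2 ratios between −0.091 and 0.084. *Cacna1d*, which encodes Cav1.3, the calcium channel of the hair cell ribbon synapse, had ratios of −0.16, 0.065, −0.13 and −0.087 on arrays 1 to 4, with a mean of −0.079 ± 0.10 (SD, n = 4; adjusted p = 0.305). *Cacna1c*, for the Cav1.2 channel of heart, muscle and neurons, had −0.0055 ± 0.077 (SD, n = 4). The T-type channel genes *Cacna1g* and *Cacna1h* had 0.084 ± 0.077 and 0.071 ± 0.20 (SD, n = 4). *Cacna1e*, for the R-type channel, had the ratio farthest from 0 in this group, −0.091 ± 0.13 (SD, n = 4), with array 2 above 0 and the others below it. *Cacna1a*, for the P/Q-type channel, was below 0 on each array, with −0.037, −0.12, −0.080 and −0.097 and an adjusted p of 0.221.

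The auxiliary calcium channel genes lay between −0.15 and 0.095. The 4 beta genes, which bring the alpha1 pore to the membrane, had means between −0.037 and 0.037, with *Cacnb2*, needed for calcium current in inner hair cells, at −0.020 ± 0.18 and *Cacnb4* at 0.037 ± 0.10 (SD, n = 4). Of the alpha2delta genes, *Cacna2d2* had 0.37 and 0.37 on arrays 1 and 3 but −0.38 and 0.018 on arrays 2 and 4, with a mean of 0.094 ± 0.36 (SD, n = 4; adjusted p = 0.454). It passed the test only when array 2 was left out, where the ratio was 0.19. *Cacng4*, a transmembrane AMPA receptor regulator of the gamma group, came nearest to the threshold among the calcium channel genes. Its ratios were −0.11, −0.11, −0.13 and −0.23, with a mean of −0.15 ± 0.059 (SD over 4 arrays, SE 0.037, adjusted p = 0.0673). It passed the test with Agilent's processed signals (−0.25) and with an offset of 10 (−0.19). *Cacng6* and *Cacng7* had 0.095 and 0.040, and 5 of the 8 gamma genes were too dim to be tested.

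HCN channels gave 2 tested genes. *Hcn2* and *Hcn3* had mean ratios of 0.059 ± 0.14 and −0.055 ± 0.17 (SD, n = 4), with arrays on both sides of 0. Among the dim calcium channel genes, *Cacng2*, for the AMPA receptor regulator stargazin, was well above background in 2 control and 0 mutant pools. When dim probes were kept, its mean log2 ratio was −0.25 (limma adjusted p = 0.0247). Signals this near background give no firm limit on the fold change. Its ratios ranged from −0.55 on array 1 to −0.0074 on array 2, and its second probe had 0.017.

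TRP channels held all 3 genes that passed the test with a higher level. *Trpc4* encodes a receptor-activated calcium-permeable channel. Its brightest probe lies on chromosome 3 from 54122087 to 54122146 (mm9). The log2 signal was 8.84, 8.79, 8.67 and 8.82 in the control pools and 9.14, 8.89, 8.90 and 9.01 in the mutant pools. All 4 mutant pools were above the control pools, by a mean log2 ratio of 0.21 ± 0.087 (SD over 4 arrays, SE 0.036, adjusted p = 0.0195). A second probe, 0.117 kb away, rose as well, by 0.26 ± 0.098 (SD, n = 4; adjusted p over all probes 0.00853). *Trpv6* encodes an epithelial channel for calcium uptake, and its probe lies on chromosome 6 from 41570624 to 41570683 (mm9). The log2 signal was 9.47, 9.48, 9.36 and 9.36 in the control pools and 9.58, 9.68, 9.58 and 9.56 in the mutant pools. The shift was small but even, with a mean ratio of 0.18 ± 0.052 (SD over 4 arrays, SE 0.037, adjusted p = 0.0338). Neither gene passed the test without the dye term. *Trpc4* also lost it with array 1, 3 or 4 left out, and *Trpv6* with any array left out and with the processed signals.

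*Trpm1* encodes a channel of retinal ON bipolar cells and of melanocytes, the pigment cells that also populate the stria vascularis. Its brightest probe, on chromosome 7 from 71371607 to 71371666 (mm9), had log2 signals of 14.35, 14.87, 14.66 and 14.52 in the control pools and 14.78, 15.17, 14.81 and 14.65 in the mutant pools. Mutant was higher on each array, but the groups overlapped. The ratios were 0.43, 0.30, 0.15 and 0.14, with a mean of 0.25 ± 0.14 (SD over 4 arrays, SE 0.053, adjusted p = 0.0378). The 2 other tested probes, 2.06 and 8.21 kb away, went the other way, with −0.08 ± 0.077 and −0.08 ± 0.12 (SD, n = 4), and did not pass the test. The mean over its tested probes was 0.031, and the gene no longer passed with array 1 or 2 left out. Of its 2 promoter windows 1 holds the M-box letters. Of the 7 melanocyte markers *Mitf*, *Dct*, *Pmel*, *Tyrp1*, *Mlana*, *Tyr* and *Kit*, 0 passed the test in either direction, their median ratio was 0.037, and their mean log2 signal ranged from 11.95 to 12.16 in the control and from 11.96 to 12.13 in the mutant pools. *Trpm1* was also the 1 channel gene whose ratio differed between the sexes at an unadjusted p below 0.05 (0.0271, adjusted 1.00), with 0.37 on the female and 0.14 on the male arrays, while 2.65% of all tested genes had such a p.

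**Figure D3:**
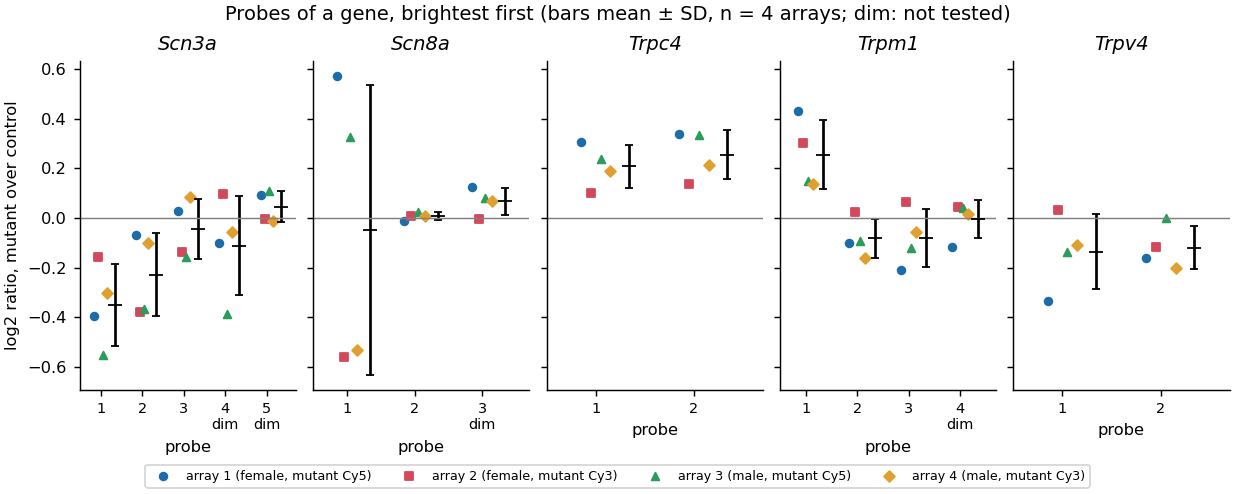
Log2 ratio of mutant over control for every probe of 5 channel genes with several probes, ordered from the brightest; symbols stand for the 4 arrays and bars for mean ± SD (n = 4), and probes marked dim were not tested. Both *Trpc4* probes are above 0, the probes of *Trpm1* and *Scn3a* differ among themselves, and the first *Scn8a* probe splits by dye.

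The TRP genes named next did not pass the test. *Trpa1*, the receptor for irritants, had ratios of −0.085, −0.11, −0.13 and −0.24, with a mean of −0.14 ± 0.067 (SD, n = 4; adjusted p = 0.0802). *Trpv4*, an osmosensitive channel found in the inner ear, had −0.14 ± 0.15 (SD, n = 4; adjusted p = 0.148), and its second probe had −0.12 ± 0.086. *Trpc1*, *Trpc5* and *Trpc6* lay between −0.059 and −0.043. *Trpm3* to *Trpm8*, among them the magnesium channels *Trpm6* and *Trpm7* and the cold receptor *Trpm8*, lay between −0.089 and 0.019, and *Trpv2* had 0.033. *Trpc7*, *Trpm2*, *Trpv1*, *Trpv3* and *Trpv5* were too dim to be tested. For the 43 channel genes that did not pass, mean ratios lay between −0.15 and 0.12. All 43 of their 95% intervals in the main fit lay within a fold change of 1.18 either way. Other settings could go further, as for *Cacng4*, with a log2 ratio of −0.25 in Agilent's processed signals.

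The dyes moved some channel genes more than the genotype did. The dye term passed an adjusted p of 0.05 for 9 of 50 channel genes, or 18%, against 13.3% of all tested genes, and reached 0.3 in size for *Scn8a* (0.50) and *Scn11a* (−0.36), where 1.41% of all tested genes reached it. The ratio of *Pkd2l1* was −0.80 with the mutant in Cy5 and −0.57 with the mutant in Cy3, and that of *Scn4b* was −0.40 and −0.56. *Trpc4*, *Trpm1*, *Trpv6* and *Scn3a* likewise kept their sign in both dye directions. By sex, 0 channel genes passed an adjusted p of 0.05 for the difference between male and female arrays, as did 0 of all tested genes, and the arrays of each sex were 2.

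**Figure D4:**
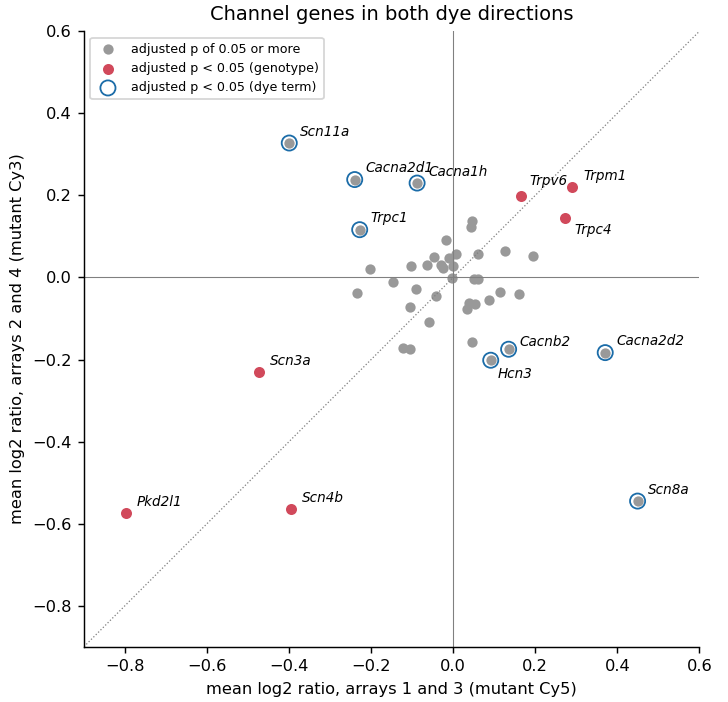
Mean log2 ratio of mutant over control on the arrays with the mutant in Cy5 (horizontal axis) and in Cy3 (vertical axis) for 47 of the tested channel genes; each point is the mean of 2 arrays and the dotted line marks equal ratios. The 6 genes drawn in red, which passed the test of genotype, have the same sign on both axes, while *Scn8a* and *Scn11a*, with the dye term circled in blue, have opposite signs.

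Genes that work with these channels were examined as lists. Of 74 partner genes 64 were tested, and 3 passed the test with a lower and 3 with a higher level. That is 9.38% of them, against 5.18% of all tested genes, and their median ratio was 0.00056. The partner lists too were picked with earlier results of these data known, so this share is descriptive only. Sodium channel partners held *Nrcam*, for the cell adhesion molecule that helps to gather sodium channels at nodes of Ranvier, with ratios of −1.02, −0.53, −0.92 and −0.64. It was called lower at −0.78 ± 0.23 (SD, n = 4; adjusted p = 6.7e-05), a fold change of 1.72. *Cntn1*, for contactin of the same axonal complexes, passed the test at 0.19 ± 0.31 (SD, n = 4; adjusted p = 0.0248), but its ratios were 0.48 and 0.43 with the mutant in Cy3 and −0.048 and −0.10 with the mutant in Cy5. Of 4 HCN partners, *Pex5l*, for the protein TRIP8b that controls HCN channels at the membrane, was called lower, at −0.65 ± 0.30 (SD, n = 4; fold change 1.57). It was below 0 on each array, between −0.35 and −0.93, but a dimmer tested probe of the gene had −0.07 ± 0.070 (SD, n = 4). Its probe lies 1.70 Mb from that of *Sox2*.

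Partners of calcium and TRP channels did not pass the test, with 0 of 13 and 0 of 12. Among other cation channels and calcium release genes 3 of 24 passed. *Jph1*, for a junctophilin that ties the plasma membrane to calcium stores, was higher on each array, by 0.39 ± 0.11 (SD, n = 4; adjusted p = 0.000862). *Jph4*, a neuronal junctophilin, was lower on each array, by a ratio of −0.33 ± 0.18 (SD, n = 4; adjusted p = 0.0247). *Scnn1a*, for a subunit of the epithelial sodium channel, was higher, by 0.18 ± 0.084 (SD, n = 4; adjusted p = 0.0463). In the limma fit over all tested probes *Scnn1a* had an adjusted p of 0.057. Of the 16 other settings, the result was weaker in 10 for *Scnn1a*, in 7 for *Jph4* and in 9 for the sodium channel partner *Cntn1*.

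Most markers of neurons and some of glia were lower as well. Of 13 neuron markers, 8 passed the test with a lower level (*Tubb3*, *Stmn2*, *Elavl3*, *Elavl4*, *Nefl*, *Nefm*, *Gap43* and *Ina*) and 2 with a higher one (*Syt1* and *Isl1*), and their median ratio was −0.36. Their mean log2 signal was between 10.61 and 10.86 in the control pools and between 10.36 and 10.51 in the mutant pools. Of 8 markers of Schwann cell precursors and glia, *Foxd3*, *Cdh19* and *Ngfr* were called lower, with mean log2 signals between 11.47 and 11.54 in the control and between 11.16 and 11.27 in the mutant pools. Per the methods, the spiral ganglion had been removed from the isolated ducts. The part of these cells in the ratios of *Scn4b*, *Scn3a*, *Pkd2l1* and *Nrcam* was not tested, and in such bulk samples fewer cells of a type and less RNA per cell cannot be told apart. Of 7 hair cell markers 1 passed the test (*Myo7a*, higher), and of 11 markers of the cochlear epithelium *Jag1* was lower and *Emx2* and *Gata3* were higher. All genes of these 4 lists were bright enough to be tested. Of the markers of mesenchyme *Postn* was lower and *Col1a1* higher, and of those of endothelium, macrophages, blood and skeletal muscle 0 passed the test. *Tbx2* itself had a ratio of −0.12 ± 0.098 (SD, n = 4; adjusted p = 0.124), below 0 on each array, and whether its probe lies in the deleted stretch was not analysed here. *Esr1*, part of which the creERT2 fusion carries, was well above background in 4 of 4 mutant and 0 of 4 control pools.

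These results were not equally steady across processing. *Pkd2l1* and *Scn4b* passed the test in each of the 16 other settings, *Scn3a* in 13 of them, *Trpc4* in 10, *Trpv6* in 7 and *Trpm1* in 7. The direction of these 6 was the same in all settings, although the other tested probes of *Trpm1* went the other way. The settings are not independent checks, since all use the same arrays and some repeat most or all of the main fit.

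**Figure D5:**
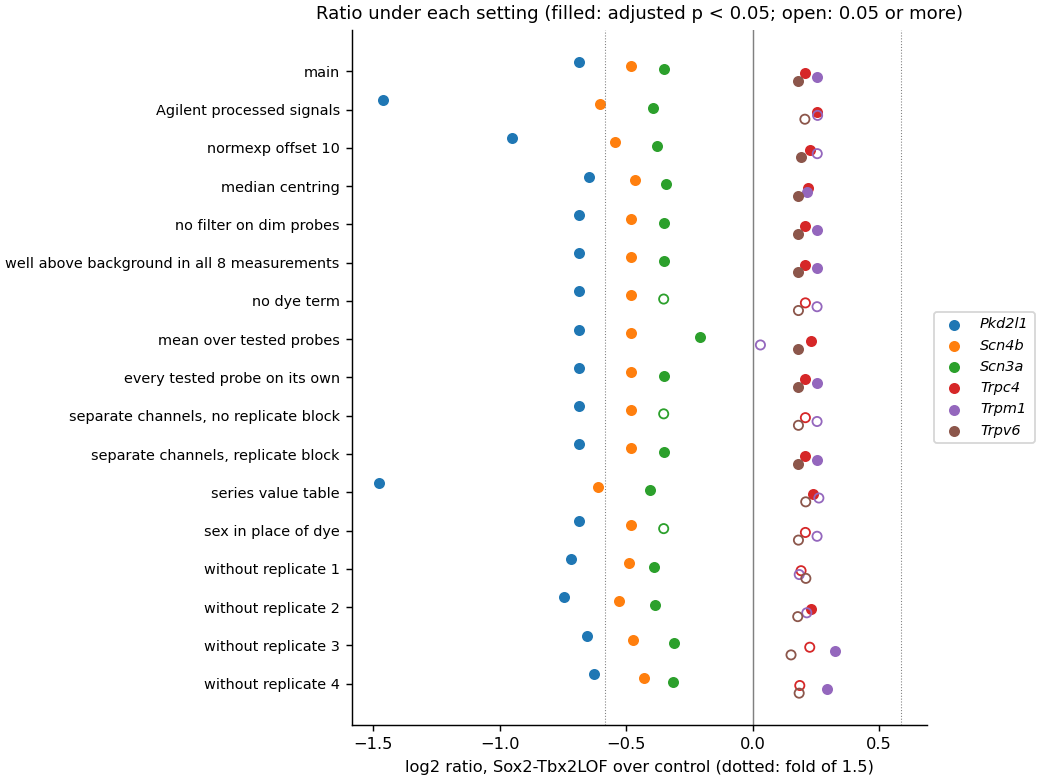
Log2 ratio of mutant over control (horizontal axis) for 6 genes that passed the test, under each processing setting (rows); filled points have an adjusted p below 0.05, open points do not, and dotted lines mark a fold change of 1.5. *Pkd2l1* and *Scn4b* are filled in every row, and the 3 genes with a higher level are open in several.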

How the data were processed

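Channel genes and partner lists were chosen with earlier results of these data known. The authors hybridized mutant and control RNA together and deposited Agilent Feature Extraction 10.7.3.1 output, in which the intensity values are mean spot and median local background brightness in both dyes and Agilent's processed intensity. The deposited log10 ratio of processed Cy5 over Cy3 served only to check the dye direction. The authors' series table holds a score per probe that matches a fold change with a sign, where ratios below 1 are written as minus their reciprocal. Its log2 values had a median of 0 on each array and correlated across tested probes with the ratios used here at 0.912 to 0.942, and its normalization is not given in the sources used here. The files' headers name a custom design with 4 spots per probe, while another Agilent array is given in the methods. Positions are mm9, as in the files.

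Intensities were corrected with normexp (offset 50) and loess, without control spots and without flagged spots (8.29% to 8.56%). Between 69.2% and 72.0% of probes were well above background in each pool and 0 spots were saturated. For levels per pool, channels were further scaled with Aquantile between arrays. Ratios were fitted with limma 3.58.1 (lmFit, eBayes) in R 4.3.3 with a dye term, for which the prior was 5.65 degrees of freedom beside 2 residual ones, and the scripts were tested on simulated data. Pools sharing an array were paired by hybridization, and pools of 1 genotype were taken as independent samples. Lists were described by counts and medians, with no test. Genes named were those passing the test, the largest ratio in each family, a fixed list of excitability and cochlear genes, partners passing the test, and *Tbx2*, *Sox2* and *Esr1*. *Scn2a1*, an older symbol outside the rule, had a ratio of 0.02 and was left out. Alternatives covered background, normalization, filters, dye and sex terms, probe choice, pairing, the authors' table and leaving out each array. Some items of the lists are not reported here.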

Additional observations from a re-analysis of the deposited data

Results flagged for a closer look

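Each of the 31 genes named, including those that check the labels, was examined for an array far from the others. For *Sox2*, the gene that carries the insertion, the log2 ratio was −0.26 on array 3 and 0.08, 0.08 and 0.14 on the other arrays. The gap below the nearest array was 0.835 of the whole range, above the 95% critical value of Dixon's test for 4 arrays. Chance alone gives such a gap in about 1 of 20 groups, and 0 of the channel genes among the 31 had one.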

How the results depend on the processing

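*Pkd2l1* was called under all alternatives. In the processed signals, and also in the deposited value table, 2 channel genes were called lower, as *Scn4b* then reached a fold change of 1.5. By the adjusted p alone, 2 channel genes were lower and 0 higher without the dye term, with sex in place of the dye, and with separate channels and no replicate block. Separate channels with the array as replicate block gave the 4 lower and 3 higher genes of the main analysis. That setting also gave the same 615 lower and 476 higher genes over all genes, so it repeats the main fit and is no separate check. Only 1 gene was higher with the processed signals or the value table. With each array left out in turn, 1 channel gene was called lower, 3 to 4 passed lower and 0 to 2 higher. The count of higher genes was 0 without array 1, 2 without array 2 (*Trpc4* and *Cacna2d2*), and 1 without array 3 or array 4 (*Trpm1*). The mean ratio changed sign with an array left out for genes that had not passed: *Cacna2d2* was at −0.0069 at the lowest and 0.19 at the highest, *Cacnb3* at −0.088 to 0.015, *Cacna1c* at −0.028 to 0.017, *Cacnb4* at −0.0066 to 0.080, *Scn8a* at −0.11 to 0.014, and *Sox2* at −0.073 to 0.096. Under median centring *Sox2* was at −0.017. Of the neuron markers 1 was higher with the processed signals and under median centring, and 0 to 2 with an array left out, while 7 were lower then. Of the glia markers 0 were higher in all these settings, against 1 in the main analysis. The melanocyte median was 0.0085 under median centring and 0.019 to 0.039 with an array left out, when 0 to 1 of them passed lower. Of the partner genes 1 was higher with the processed signals, and 2 to 6 were lower and 1 to 2 higher with an array left out. The causes were not tested. Over all genes, those passing lower and higher fell from 615 and 476 to 174 and 90 without the dye term. All 4 arrays shared a slide and a scan, so a block for these was not run. The signals of *Cacng2* were too near background to give a firm limit on its fold change, and the offset pulls ratios of dim probes toward 0.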
